A study of Rattus norvegicus with 6 samples.

Results

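The retinoid X receptors (RXR) act mainly as the shared member of a receptor pair, and the genes of 8 nuclear receptors that pair with them were examined: Ppara, Ppard and Pparg (the peroxisome proliferator-activated receptors, PPAR), Nr1h2 and Nr1h3 (the liver X receptors, LXR), Vdr (the vitamin D receptor), and Thra and Thrb (the thyroid hormone receptors). They were picked by name as nuclear receptors that dimerize with RXR, the retinoic acid receptors left out, and all 8 had a row among the 18923 genes of the files. The cells were primary chondrocytes, the cartilage-forming cells, of wild-type (WT) female Sprague-Dawley rats, 24 h old by the study's methods. Both groups grew in high-glucose DMEM with 10% fetal bovine serum and 1% penicillin-streptomycin. In the RA group, 1 μM all-trans retinoic acid was added for 24 h, and the control group (CON) had the same medium alone for 24 h, with no vehicle named. Polyadenylated RNA of 3 samples per group was sequenced. The study's methods call the samples of a group independent, and no source used here ties them to separate animals or cultures, so the p-values measure the spread between these samples.

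In such a pair, the partner binds a fatty acid derivative (PPAR), an oxidized sterol (LXR), calcitriol (VDR) or thyroid hormone, and the pair switches genes on or off at DNA sites made of repeated copies of a 6-base motif. The retinoic acid receptors (RAR) draw on the same RXR molecules. Serum carries retinol, vitamin D metabolites, thyroid hormone and fatty acids, and their amounts in these cultures are not reported. In the growth plate, thyroid hormone and vitamin D signaling are known for their roles in chondrocyte maturation and mineralization, and PPAR and LXR for the handling of lipids.

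Of the 8 receptors, 2 passed the test, Pparg higher and Thra lower in RA, and their promoters are shown as the sequence context of those results. Each window holds the 250 bases before a transcription start, on the plus strand of the GRCr8 assembly, from RefSeq. Capitals mark the core motif of receptor binding, searched on both strands as AGGTCA and in the variant spellings AGTTCA, then GGGTCA, and lastly GGTTCA. Pparg has 2 annotated starts, at chr4:150096808-150097057 and chr4:150154522-150154771, and Thra has 2, at chr10:84197891-84198140 and chr10:84209708-84209957.
Pparg window 1: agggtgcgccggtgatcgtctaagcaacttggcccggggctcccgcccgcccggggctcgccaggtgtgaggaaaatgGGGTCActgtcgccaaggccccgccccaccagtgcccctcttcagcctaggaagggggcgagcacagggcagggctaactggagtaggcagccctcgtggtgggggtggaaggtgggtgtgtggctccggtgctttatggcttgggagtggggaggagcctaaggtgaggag
Pparg window 2: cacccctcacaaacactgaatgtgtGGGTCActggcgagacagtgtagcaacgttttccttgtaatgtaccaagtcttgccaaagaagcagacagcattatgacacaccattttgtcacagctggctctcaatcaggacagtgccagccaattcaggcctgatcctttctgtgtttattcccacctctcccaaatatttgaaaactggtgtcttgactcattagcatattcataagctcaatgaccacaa
Thra window 1: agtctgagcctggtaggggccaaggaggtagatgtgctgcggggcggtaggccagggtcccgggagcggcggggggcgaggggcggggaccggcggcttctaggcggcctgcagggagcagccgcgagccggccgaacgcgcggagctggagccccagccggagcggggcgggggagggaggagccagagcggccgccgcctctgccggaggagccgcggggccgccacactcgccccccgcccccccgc
Thra window 2: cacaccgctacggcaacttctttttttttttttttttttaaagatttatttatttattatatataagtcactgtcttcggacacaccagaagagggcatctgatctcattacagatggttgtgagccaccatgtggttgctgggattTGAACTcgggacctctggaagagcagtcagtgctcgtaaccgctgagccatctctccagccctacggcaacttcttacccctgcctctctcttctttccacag
Both Pparg windows held 1 copy written GGGTCA. The first Thra window held no copy at a GC content of 79.6%, and the second held 1 copy, on the minus strand, at 44.8%. Windows were found for 7 of the 8 receptors (9 windows), and 6 of the 9 held a copy, against 39.1% of all 33469 RefSeq windows of the same length. Direct repeats of the motif with 1 to 5 bases between the copies, the layout that RXR pairs bind, were in none of the 9 windows, and each of the 5 layouts was in at most 0.326% of all windows. A match describes letters only, and no match says only that these letters were not in these 250 bases. Expression was counted on another assembly (Rnor_6.0), so no coordinate was carried from one to the other.

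The libraries held between 29370025 and 38007486 counts. The library CON 1 stood apart from its group: over genes, the chi-square per degree of freedom was 39.6 and 63.3 between CON 1 and the other CON libraries, and between 6.53 and 8.25 for every other pair within a group. Where the adjusted p of a named gene crosses 0.05 without CON 1, both values are therefore given. All 12 listed cartilage markers were tested and all 12 fell in RA, beside 4.50% of all genes tested. Their summed level went from between 7413 and 9514 FPKM in CON to between 4471 and 4818 FPKM in RA. The part of this shift in the results was not tested. FPKM, fragments per kilobase of gene scaled to the library's reads, is the scale of every level below, and values are given in the order of replicates 1, 2 and 3. Retinoic acid response genes moved with the label. Of 10 tested, 6 rose and 1 fell at an edgeR adjusted p below 0.05, beside 5.31% and 4.50% of all genes tested. Both lists were chosen with earlier results of these data known. Cyp26a1, an enzyme that breaks down retinoic acid, was at 0.389 ± 0.162 FPKM in CON and 4.01 ± 0.596 FPKM in RA (SD, n = 3 each). The summed levels of osteoblast markers (12.1 to 13.7 FPKM in CON, 12.6 to 13.5 FPKM in RA), skeletal muscle markers (9.69 to 12.0 and 9.45 to 11.3 FPKM) and endothelium markers (5.49 to 8.03 and 6.22 to 6.85 FPKM) overlapped between the groups. Single markers changed under those sums: Ibsp, bone sialoprotein, rose (log2 fold change 1.47, adjusted p = 0.00622) and Alpl fell among the osteoblast markers, and Myod1 rose (1.93, adjusted p = 0.0142) and Tnnt3 fell (a fold of 0.499, adjusted p = 0.0214) among the muscle markers. Ibsp passed with any library left out, while Myod1 and Tnnt3 did not pass without CON 2, RA 1 or RA 2 (adjusted p up to 0.0728 and 0.100). Ibsp and Myod1 were low, with means over CON 2 and CON 3 of 0.488 and 0.0813 FPKM. The part of these markers in the results was not tested.

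Of the 8 receptors, 1 passed the edgeR test upward and 1 downward (adjusted p below 0.05). Among all 13438 genes tested, 9.82% passed in either direction, 5.31% upward and 4.50% downward. A differentially expressed gene (DEG) had in addition an absolute log2 fold change above 0.58, which held for Pparg alone of the 8 and for 4.96% of all genes. The FPKM of the 2 groups did not overlap for 2 of the 8 receptors, again Pparg and Thra, and did not overlap for 32.2% of all genes. The median log2 fold change was -0.14 over the receptors and -0.01 over all genes tested. In bulk RNA, fewer cells of a type and less RNA per cell cannot be told apart.

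**Figure D1:**
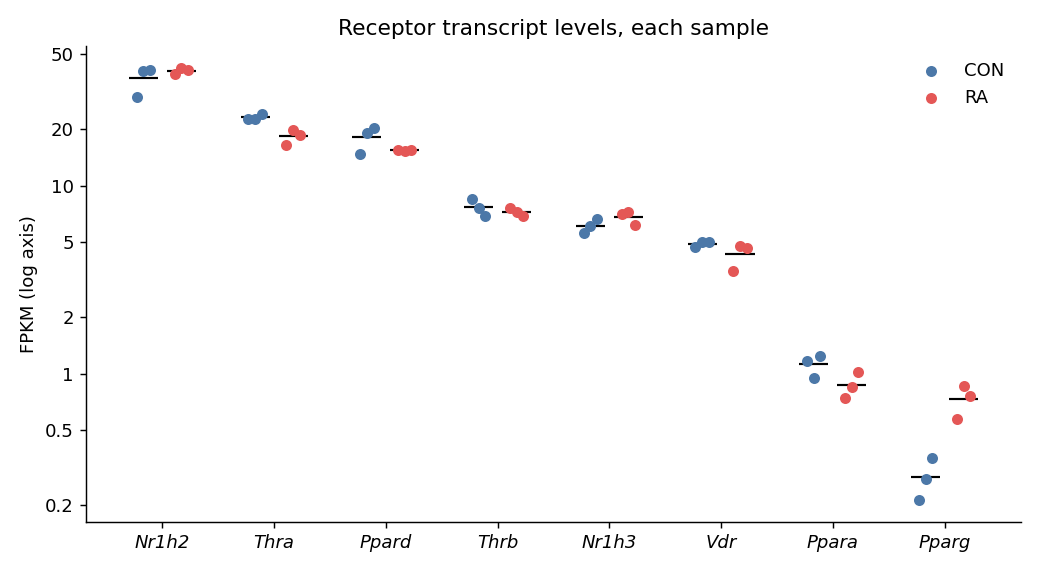
FPKM (log axis) of each receptor gene in the 3 CON (blue) and 3 RA (red) samples, with a bar at the group mean. Pparg, the lowest of the 8, is the receptor with every RA sample above every CON sample, and Thra the one with every RA sample below.

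The levels spread widely, and the order of the means was the same in both groups: Nr1h2, Thra, Ppard, Thrb, Nr1h3, Vdr, Ppara and Pparg. The mean over all samples was above that of 85.2% of tested genes for Nr1h2, 72.5% for Thra and 67.4% for Ppard. Thrb (47.0%), Nr1h3 (43.4%) and Vdr stood near or below the middle, and Ppara (15.5%) and Pparg (9.43%) were among the low genes. In CON, no neighbours in this order overlapped between their samples. In RA, the ranges of Thrb and Nr1h3 overlapped, as did those of Ppara and Pparg.

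Pparg encodes PPARγ, known as the regulator of fat cell formation. Its levels were 0.213, 0.275 and 0.356 FPKM in CON and 0.573, 0.861 and 0.761 FPKM in RA. All 3 RA samples were above all 3 CON samples. The means were 0.281 ± 0.0715 and 0.731 ± 0.146 FPKM (SD, n = 3 each), a 2.55-fold difference with a 95% interval of 1.60 to 4.06 (log2 fold change 1.35, SE 0.293, edgeR adjusted p = 0.0228). The counts behind these values were low, at 15, 19 and 31 in CON and 39, 58 and 54 in RA. With 1 library left out, Pparg stayed past the threshold in 3 of 6 fits, and the adjusted p was 0.0872 without CON 2, 0.108 without RA 2 and 0.0942 without RA 3. The log2 fold change ran from 1.18 to 1.58 over the 6 fits. The files give 1 value per gene, so transcripts from the 2 starts cannot be told apart.

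Ppard encodes the broadly expressed member, PPARδ, and carried most of the PPAR transcript level. It was at 14.8, 19.0 and 20.4 FPKM in CON and 15.6, 15.4 and 15.5 FPKM in RA. CON 1 was at the RA level, and the groups overlapped. The log2 fold change was -0.24 (SE 0.113, 95% interval -0.50 to 0.02, adjusted p = 0.248) with all samples. Without CON 1 it was -0.37 and passed, with an adjusted p of 0.000527, so the call on Ppard turned on that library. Ppara encodes PPARα, known as a driver of fatty acid oxidation in the liver. Its samples overlapped at 1.16, 0.95 and 1.25 FPKM in CON and 0.744, 0.848 and 1.02 FPKM in RA, and the log2 fold change was -0.38 (95% interval -0.86 to 0.10, adjusted p = 0.317).

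Within each sample, Pparg made up 1.32%, 1.35% and 1.62% of the summed PPAR level in CON and 3.39%, 5.04% and 4.39% in RA. Ppard held 92.7% ± 1.23 of that level in the CON samples and 90.7% ± 1.36 in the RA samples (SD, n = 3 each). The ratio of Pparg to Ppard, which does not depend on scaling between libraries, was 1.60 higher on the log2 scale in RA without overlap (exact permutation p = 0.1, two-sided, the smallest that 3 against 3 allows; adjusted over 6 ratios 0.3). The ratio of Ppara to Ppard differed by -0.16 (exact permutation p = 0.6, adjusted 0.9).

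Nr1h2 encodes LXRβ, the form found in most tissues, and was the highest of the 8. Its levels were 29.7, 40.9 and 41.3 FPKM in CON and 39.1, 42.5 and 41.1 FPKM in RA. CON 1 lay well below the other 5 samples. The log2 fold change was 0.12 (SE 0.124, 95% interval -0.17 to 0.40, adjusted p = 0.606), and -0.02 (adjusted p = 0.833) without CON 1. Nr1h3 encodes LXRα, best known from liver, fat and macrophages, and was at 5.60, 6.12 and 6.63 FPKM in CON and 7.07, 7.25 and 6.20 FPKM in RA. The groups overlapped, with a log2 fold change of 0.15 (95% interval -0.12 to 0.41, adjusted p = 0.488). Nr1h2 held 85.8% ± 1.45 of the LXR level in the CON samples and 85.7% ± 1.12 in the RA samples (SD, n = 3 each), and the Nr1h3 to Nr1h2 ratio differed by 0.01 on the log2 scale (exact permutation p = 0.9).

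Vdr, the receptor for calcitriol, was at 4.73, 5.01 and 5.04 FPKM in CON and 3.50, 4.80 and 4.66 FPKM in RA. RA 1 was the low sample, RA 2 lay inside the CON range and RA 3 just below it. The log2 fold change was -0.20 (SE 0.125, 95% interval -0.49 to 0.08, adjusted p = 0.368). RA 1 was also the lowest of the 6 samples for Ppara and Thra.

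Thra encodes thyroid hormone receptor α, the main form of the skeleton, together with a splice form that does not bind the hormone. It was at 22.7, 22.6 and 24.0 FPKM in CON and 16.6, 19.8 and 18.7 FPKM in RA. Every RA sample was below every CON sample. The means were 23.1 ± 0.778 and 18.3 ± 1.63 FPKM (SD, n = 3 each), a fold of 0.786 with a 95% interval of 0.690 to 0.896 (log2 fold change -0.35, SE 0.0820, adjusted p = 0.0326). Thra passed in 1 of the 6 fits with a library left out: the adjusted p was 0.00586 without CON 1, and it lay between 0.0545 and 0.114 without CON 2, CON 3, RA 1, RA 2 or RA 3. The log2 fold change stayed between -0.41 and -0.27.

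Thrb encodes the β form, and was at 8.51, 7.57 and 6.91 FPKM in CON and 7.60, 7.28 and 6.94 FPKM in RA. The groups overlapped, with a log2 fold change of -0.09 (95% interval -0.28 to 0.10, adjusted p = 0.570). The summed level of both genes was 30.8 ± 0.495 FPKM in CON and 25.6 ± 1.45 FPKM in RA, and Thra held 75.1% ± 2.48 and 71.5% ± 2.56 of it (SD, n = 3 each). The Thrb to Thra ratio was 0.27 higher in RA on the log2 scale with overlapping samples (exact permutation p = 0.3, adjusted 0.6).

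Genes on the opposite strand overlap some of these receptors in the RefSeq annotation: Nr1d1 and Med24 overlap Thra, Acp2 overlaps Nr1h3, and Cdpf1 overlaps Ppara. The library kit does not mark strand, and how reads of overlapping genes were assigned is not given in the sources used here. Beside the fall of Thra, Nr1d1 was at 12.4 ± 1.19 FPKM in CON and 13.2 ± 1.21 FPKM in RA (adjusted p = 0.708), and the log2 fold change of Med24 was 0.03 (adjusted p = 0.896). Acp2 and Cdpf1 had log2 fold changes of 0.07 (adjusted p = 0.499) and -0.11 (adjusted p = 0.606).

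**Figure D2:**
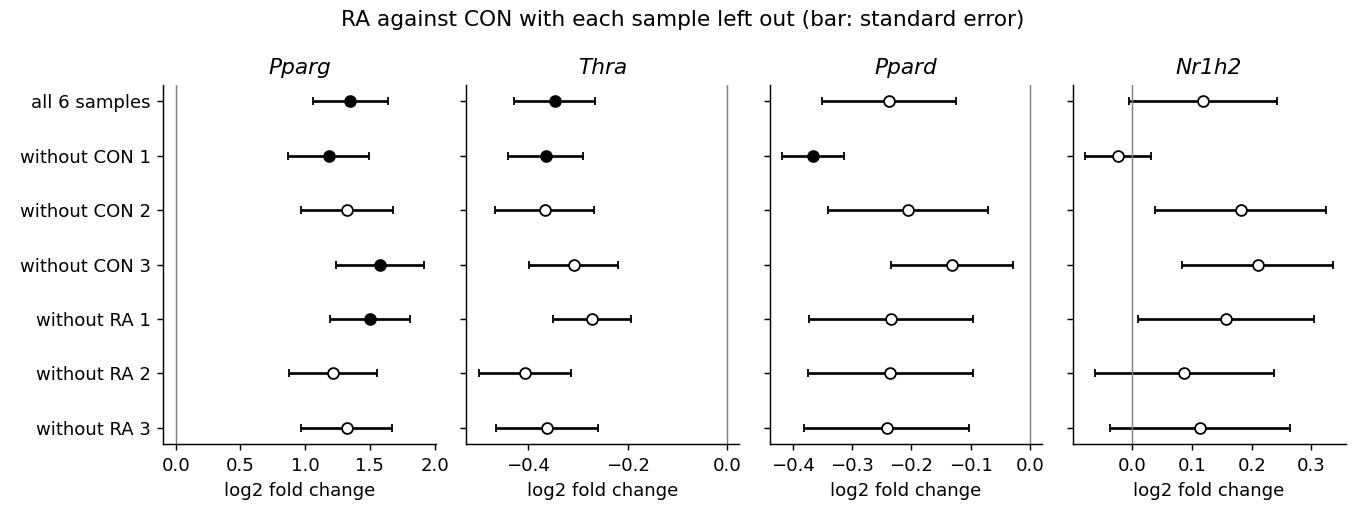
Log2 fold change (RA against CON) of Pparg, Thra, Ppard and Nr1h2 with all 6 samples and with each sample left out; bars are standard errors, filled points have an adjusted p below 0.05, and each panel has its own axis range. Pparg passes in 3 of the 6 fits with a sample left out, Thra and Ppard only without CON 1, and Nr1h2 moves across 0 without CON 1.

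The summed level of the 8 receptors was 87.4, 103 and 106 FPKM in CON and 90.7, 98.7 and 94.9 FPKM in RA, and the groups overlapped. Nr1h2 made up 37.6% of this sum in CON (39.5% without CON 1) and 43.2% in RA, and Thra 23.6% (22.4% without CON 1) and 19.3%. Pparg, the receptor with the largest fold, was 0.282% of the sum in CON and 0.769% in RA.

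**Figure D3:**
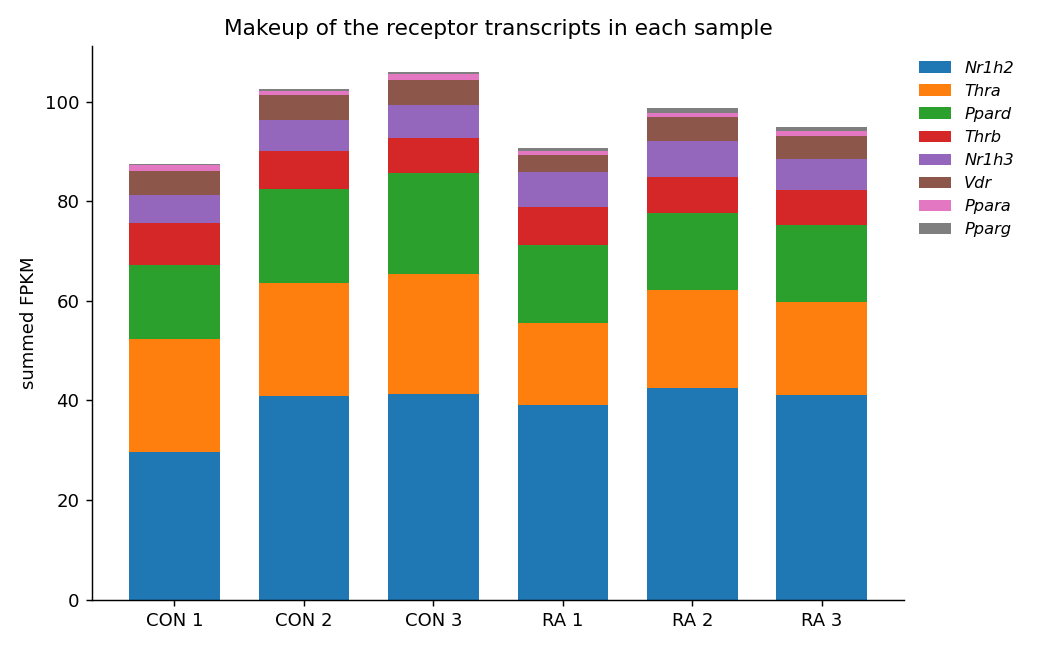
Summed FPKM of the 8 receptor genes in each sample, stacked by gene from Nr1h2 at the bottom to Pparg at the top. The bars reach 87.4 FPKM in CON 1 and between 90.7 and 106 FPKM in the other samples, and Nr1h2, Thra and Ppard fill most of every bar.

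RXR itself was carried by Rxra, at 18.4, 28.0 and 29.3 FPKM in CON and 31.3, 31.7 and 32.2 FPKM in RA. Every RA sample was above every CON sample, but the CON samples were spread and Rxra did not pass the test (log2 fold change 0.32, adjusted p = 0.264). Rxrb was at 6.63 ± 1.55 FPKM in CON and 7.21 ± 0.383 FPKM in RA (adjusted p = 0.736), and Rxrg, with at most 7 counts in any library, was not tested. Without CON 1 the log2 fold changes were 0.13 for Rxra (adjusted p = 0.134) and -0.07 for Rxrb (adjusted p = 0.583). Of the 2 RXR genes tested, 0 passed in edgeR, 0 had an unadjusted p below 0.05 and 0 passed in DESeq2. Among all genes tested, 12.3% were higher and 11.7% lower at an unadjusted p below 0.05, the background for every such count below. At an edgeR adjusted p below 0.05 these shares were 5.31% and 4.50%, the background for genes counted below as risen or fallen. The ratio of the 8 partners to the summed RXR level was 3.75, 2.92 and 2.84 in CON and 2.38, 2.50 and 2.41 in RA. It was 0.37 lower on the log2 scale in RA without overlap (exact permutation p = 0.1, adjusted 0.3), and 0.25 lower without CON 1, the sample with the lowest Rxra level.

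Among the competing RAR genes, Rarg led at 69.6 ± 3.54 FPKM in CON and 65.5 ± 0.968 FPKM in RA (adjusted p = 0.362, and 0.0494 without CON 1), and Rara had a log2 fold change of 0.07 (adjusted p = 0.686). Rarb, a known retinoic acid target, was at 0.237 ± 0.116 FPKM in CON and 0.637 ± 0.164 FPKM in RA (log2 fold change 1.43, adjusted p = 0.0493), a call that was lost when any library but CON 1 was left out. The ratio of the 8 partners to the RAR genes differed by -0.01 on the log2 scale (exact permutation p = 0.9, adjusted 0.9). Of the other listed RXR partners, 3 were tested: Nr1i3 (log2 fold change 0.15, adjusted p = 0.543), Nr4a1 (0.05, adjusted p = 0.875) and Nr4a2 (-0.38, adjusted p = 0.124).

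**Figure D4:**
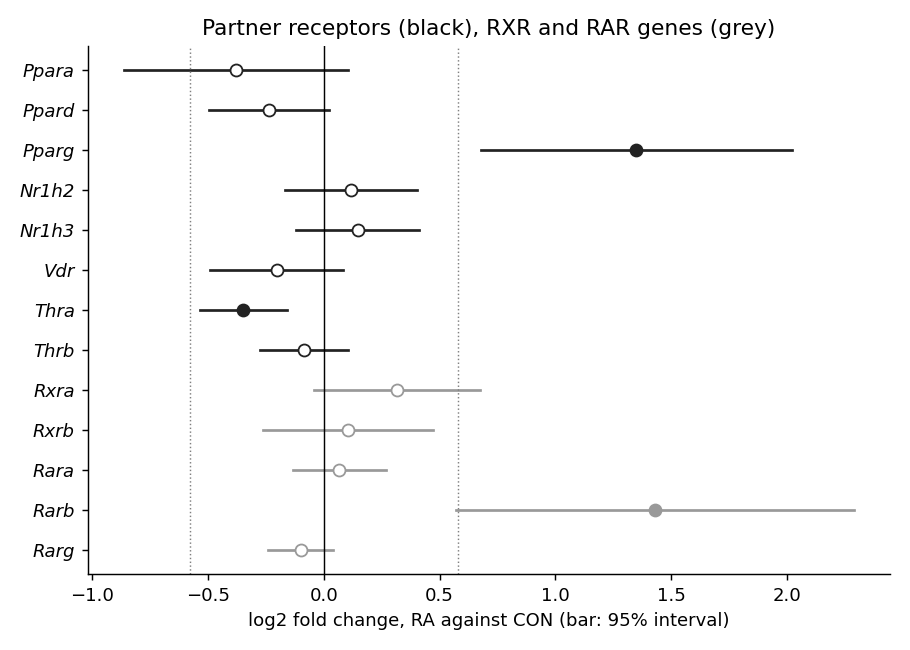
Log2 fold change (RA against CON) with its 95% interval for the 8 partner receptors (black) and the tested RXR and RAR genes (grey); filled points have an adjusted p below 0.05 and dotted lines stand at 0.58 and -0.58. Pparg at 1.35 and Rarb at 1.43 lie past the upper dotted line, and Thra at -0.35 is the filled point below 0.

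Known target genes of each receptor were listed to show what its pathway's genes did. Of 63 distinct genes tested in the 5 target lists, 10 were DEGs (15.9%, beside 4.96% of all genes). The lists were chosen with earlier results of these data known, so nothing is read from that difference. The number was 10 without CON 1 or CON 3, 8 without CON 2, RA 1, RA 2 or RA 3, 12 with DESeq2 and 7 with limma on log2(FPKM + 1). A list gene can answer to factors other than the receptor it is listed under, retinoic acid receptors included.

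Of 20 PPAR targets in fatty acid oxidation, 18 were tested and 1 rose, a share near the 5.31% of all genes that rose. The list median was 0.13 on the log2 scale against -0.01 for all genes. The one that passed was Fabp3, a fatty acid carrier of heart and muscle, at 25.2, 25.4 and 24.9 FPKM in CON and 39.3, 44.4 and 42.5 FPKM in RA (log2 fold change 0.73, SE 0.0758, adjusted p = 0.000665). It passed with any library left out. In edgeR 0 fell, 2 were lower at an unadjusted p below 0.05, and 1 passed downward in DESeq2. At an unadjusted p below 0.05, 9 of the 18 were higher, Fabp3 included. Angptl4, an inhibitor of lipoprotein lipase, had the highest fold of the list but was spread, at 0.535 ± 0.162 FPKM in CON and 1.05 ± 0.332 FPKM in RA (log2 fold change 0.97, SE 0.314, adjusted p = 0.0995). Hadhb and Hadha, the subunits of the mitochondrial trifunctional protein, had log2 fold changes of 0.11 (adjusted p = 0.231) and 0.16 (adjusted p = 0.136), and Acadl, a long-chain acyl-CoA dehydrogenase, 0.04 (adjusted p = 0.694).

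Of 19 PPAR targets in fat storage, 11 were tested, and 1 rose and 3 fell, with a list median of 0.02. Fabp4, the fat cell fatty acid carrier, was at 2.67 ± 0.468 FPKM in CON and 4.72 ± 0.612 FPKM in RA (log2 fold change 0.81, adjusted p = 0.0411), and passed in 1 of 6 fits with a library left out, the one without CON 1. Lpl, lipoprotein lipase, which is also an LXR target, fell from 1.73 ± 0.247 to 1.04 ± 0.133 FPKM (log2 fold change -0.74, adjusted p = 0.0238), and passed only without CON 1 or CON 3 when a library was left out. Acsl1, an acyl-CoA synthetase, also fell (log2 fold change -0.43, adjusted p = 0.00593). Genes of this list moved in both directions, upward by Fabp4 alone, and any link to Pparg was not tested. Fabp5, the highest gene of the list, was at 299.9 ± 15.4 FPKM in CON and 307 ± 5.57 FPKM in RA (adjusted p = 0.885), and Dgat1 and Slc27a1, the next highest, had log2 fold changes of 0.40 (adjusted p = 0.0507) and 0.20 (adjusted p = 0.509). Without CON 1, Dgat1 passed at 0.295 (adjusted p = 0.00894).

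Of 8 fat cell markers, 7 had a mean below 1 FPKM, with Adipoq, Plin1, Cidec, Lep, Pck1 and Cfd at or near 0 in both groups, and the other was Fabp4, the DEG named above. Their summed level was 3.26 to 4.27 FPKM in CON and 5.18 to 6.15 FPKM in RA.

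Of 18 LXR targets, 13 were tested, and 4 rose and 1 fell, with a list median of -0.02. Abcg1, a transporter that exports cholesterol, was at 0.117, 0.111 and 0.115 FPKM in CON and 0.554, 0.333 and 0.590 FPKM in RA. All RA samples were above CON, from counts of 14, 13 and 17 to counts of 64, 38 and 71 (log2 fold change 2.08, SE 0.301, adjusted p = 0.00354), and the call held with any library left out. Abca1, which loads cholesterol onto apolipoproteins, rose from 4.98 ± 0.225 to 6.34 ± 0.189 FPKM (log2 fold change 0.34, adjusted p = 0.0134). Apoe, a lipoprotein component, was at 187, 209 and 203 FPKM in CON and at 237, 249 and 280.4 FPKM in RA (log2 fold change 0.34, adjusted p = 0.0305), and Lpcat3, which remodels phospholipids, rose from 52.1 ± 0.547 to 60.6 ± 0.542 FPKM (log2 fold change 0.20, adjusted p = 0.0494). With a library left out, Abca1 and Apoe passed in 3 of 6 fits each and Lpcat3 in 1. Targets in lipid synthesis did not pass with all samples: Srebf1, the regulator of fatty acid synthesis, had a log2 fold change of -0.15 (adjusted p = 0.679) and Scd, a fatty acid desaturase, -0.18 (adjusted p = 0.0567). Both were lower and passed without CON 1, Srebf1 at -0.37 (adjusted p = 0.000668) and Scd at -0.18 (adjusted p = 0.0113). CON 1 was the lowest of all 6 samples for Srebf1, at 98.2 FPKM against 164 and 176 FPKM in the other CON samples. Lpl was the gene that fell.

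Macrophages, which use this cholesterol export pathway, were checked by 10 markers, of which 8 had a mean below 1 FPKM, Ptprc and Adgre1 among them. The summed level was 13.8 to 15.1 FPKM in CON and 16.4 to 17.9 FPKM in RA, most of it Cd14. Of the 4 markers tested, 0 passed in edgeR or in DESeq2, and 1 was higher at an unadjusted p below 0.05. The part of this shift in the LXR targets was not tested.

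Of 19 VDR targets, 10 were tested and 3 rose, each a DEG with any library left out, with a list median of 0.18. Cyp24a1, the enzyme that inactivates calcitriol and the classical VDR target, was at 4, 4 and 2 counts in CON and 43, 37 and 64 counts in RA. The fitted fold was 15.0 with a 95% interval of 7.76 to 28.8 (edgeR adjusted p = 0.000733), and the RA mean was still only 0.496 ± 0.132 FPKM. Spp1, osteopontin of mineralizing matrix, was at 845, 919 and 820 FPKM in CON and 3300, 3059 and 3264 FPKM in RA. Igfbp3, which binds insulin-like growth factors, went from 33.1 ± 2.73 to 127 ± 4.58 FPKM (log2 fold change 1.92). Cdkn1a, a cell cycle inhibitor, had a log2 fold change of 0.00 (adjusted p = 0.989). In edgeR 0 targets fell, 0 were lower at an unadjusted p below 0.05, and 0 passed downward in DESeq2. Vdr itself did not pass in either direction.

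Of 18 thyroid hormone receptor targets, 12 were tested and 3 fell, with a list median of -0.20. Hr, a corepressor of hair and brain that thyroid hormone induces, was at 19.7, 24.7 and 26.2 FPKM in CON and 13.7, 14.2 and 15.2 FPKM in RA. The groups did not overlap (log2 fold change -0.73, SE 0.110, adjusted p = 0.00449), and Hr passed with any library left out. Me1, the cytosolic malic enzyme, was at 73.9, 57.0 and 54.9 FPKM in CON and 40.4, 41.0 and 38.3 FPKM in RA (log2 fold change -0.65, adjusted p = 0.00698). CON 1 was its highest sample, and without CON 1 the log2 fold change was -0.50, inside the fold threshold. Alpl, the phosphatase of mineralizing matrix, fell from 7.07 ± 0.256 to 5.35 ± 0.364 FPKM (log2 fold change -0.42, adjusted p = 0.0219), and passed in 2 of 6 fits with a library left out. Atp2a2, the calcium pump, was the highest of the list at 65.1 ± 2.35 FPKM in CON and 75.5 ± 0.466 FPKM in RA (adjusted p = 0.0521, and 0.0139 without CON 1). In edgeR 0 rose, 2 were higher at an unadjusted p below 0.05, and 1 passed upward in DESeq2.

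**Figure D5:**
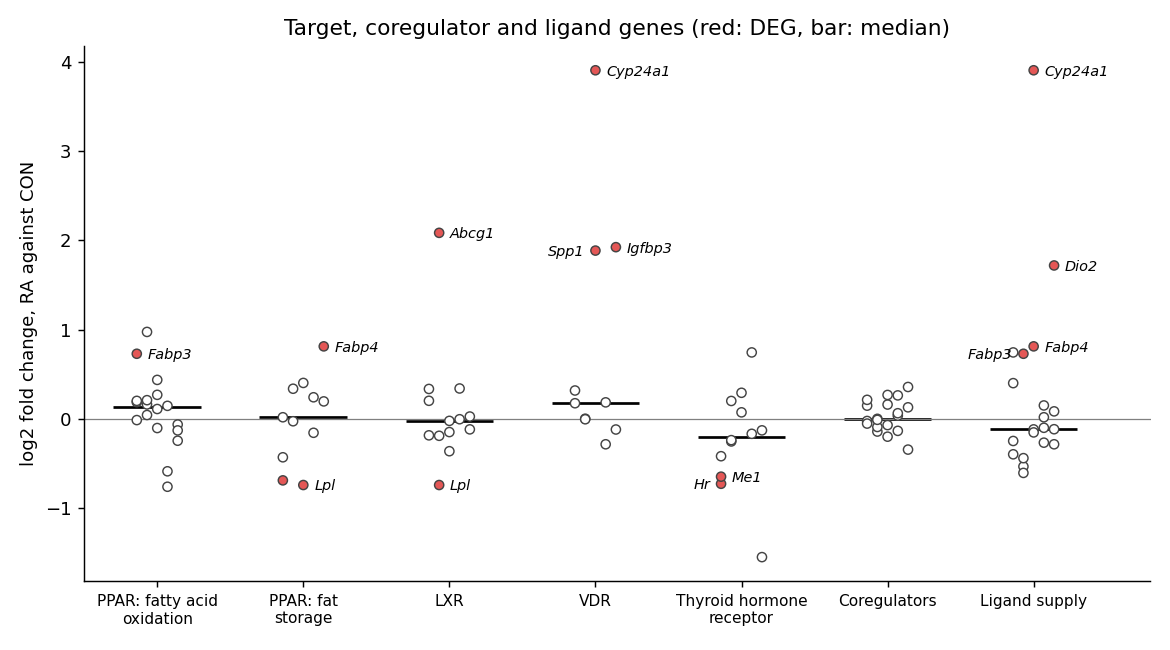
Log2 fold change (RA against CON) of each tested gene in the 5 target lists, the coregulator list and the ligand list; points are genes spread sideways for legibility, red points are DEGs, not all of them labelled, and bars are list medians. Cyp24a1 at 3.90 is the highest point, Igfbp3 and Spp1 stand apart from the rest of the VDR list, and the thyroid hormone receptor list has its DEGs, Hr and Me1, below 0.

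Coactivators and corepressors are the proteins that receptor pairs recruit. Of 20 listed, 19 were tested and 1 rose, a share near the 5.31% of all genes that rose. The list median was 0.00 on the log2 scale. The one that passed was the coactivator Ncoa3, at 15.0 ± 1.40 FPKM in CON and 19.4 ± 0.826 FPKM in RA (log2 fold change 0.36, adjusted p = 0.0278), in 2 of 6 fits with a library left out. In edgeR 0 fell, 2 were lower at an unadjusted p below 0.05, and 0 passed downward in DESeq2. Carm1 and Tbl1x were the highest, with log2 fold changes of -0.02 (adjusted p = 0.855) and -0.07 (adjusted p = 0.512).

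Among 30 genes that supply or remove the ligands, 20 were tested and 4 rose, with a list median of -0.11. These were Cyp24a1, Fabp3 and Fabp4, given above, and Dio2, the deiodinase that makes active thyroid hormone. Dio2 was at 3, 7 and 8 counts in CON and 16, 21 and 18 counts in RA (log2 fold change 1.72, SE 0.407, adjusted p = 0.0329), and passed in 0 of 6 fits with a library left out, where the adjusted p ran from 0.0594 (without CON 1) to 0.139. In edgeR 0 fell, 1 was lower at an unadjusted p below 0.05, and 1 passed downward in DESeq2. The highest genes were Pdia3, a protein disulfide isomerase that also binds calcitriol at the cell surface (adjusted p = 0.415), Fabp5, given above, and Slc3a2, a subunit of the amino acid transporters that carry thyroid hormone (adjusted p = 0.235, and 0.00941 without CON 1 at a log2 fold change of -0.21).

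Genes were compared across the 6 samples by log2 CPM (counts scaled to TMM-adjusted library totals, with a prior count of 2). Those that followed Pparg most closely were Lgals1 (Pearson r = 0.996), S100a4 (0.996) and LOC100911516 (0.995), and 354 genes had an r above 0.95. Those closest to Thra were E2f4 (0.996), Rpl32 (0.992) and Pigy (0.991), with 110 genes above 0.95. Lgals1 and S100a4 passed the test upward (log2 fold change 0.27, adjusted p = 0.0361, and 0.29, adjusted p = 0.0271). E2f4 and Rpl32 had log2 fold changes of -0.12 each (adjusted p = 0.287 and 0.230), and Pigy -0.32 (adjusted p = 0.0554, and 0.0230 without CON 1). These are descriptions over 6 samples in 2 groups, in which any gene that differs between the groups correlates with any other. The study's own list of top changed genes has RPL32 as lower in RA, and its text does not give the identifier.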

How the data were processed

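RNA of 3 CON and 3 RA samples was analysed. Per the labels, libraries were made from polyadenylated RNA with a kit that does not mark strand. The submitters' processing notes name HISAT2, HTSeq 0.13.5 and the Rnor_6.0 build. The annotation release and the strand setting are not given in the sources used here. The authors deposited raw read counts per gene and FPKM values, which equal the deposited counts rescaled by gene length and library total.

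Counts were tested with edgeR 4.0.16 (R 4.3.3), using the quasi-likelihood test, TMM scaling and filterByExpr (minimum count 10), with no covariate. The test itself gives no SE, so each SE was derived from the log2 fold change and the F statistic. The 95% intervals were built from that SE and a t quantile. Adjusted p-values are Benjamini-Hochberg values over 13438 of 18923 genes. DEGs had an adjusted p below 0.05 and an absolute log2 fold change above 0.58. Total counts ranged from 29370025 to 38007486, and the limit that 3 counts set ran from 0.0789 to 0.102 CPM. These limits cover counting error only. Ratios within samples were compared by two-sided exact permutation tests (scipy 1.17.1).

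The script for the edgeR fits was tested on simulated data. Alternatives were DESeq2 1.42.0, upper quartile scaling, no filter, limma 3.58.1 on log2(FPKM + 0.1) and log2(FPKM + 1), each library left out, and replicate numbers as a block.

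The receptors and gene lists were chosen with earlier results of these data known. Named genes were the receptors, the DEGs of each list, its 3 highest genes by FPKM and the 3 genes most like a receptor that passed. Abca1, Lpcat3, Acsl1, Alpl, Ncoa3, Angptl4 and the overlapping genes were named after their values were seen. Some genes counted in the lists are not reported here by name. Promoter windows came from RefSeq (GRCr8), which gave none here for Ppard, Cyp24a1 and Abcg1.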

Additional observations from a re-analysis of the deposited data

How the results depend on the processing

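The direction of Ppara, Ppard, Pparg, Nr1h3, Vdr, Thra and Thrb was the same under every alternative run, and that of Nr1h2 turned to -0.024 without CON 1. With 1 library left out, the log2 fold change ran from 1.18 to 1.58 for Pparg, from -0.41 to -0.27 for Thra, from -0.37 to -0.13 for Ppard and from -0.024 to 0.21 for Nr1h2. The number of receptors that passed ran from 0 to 3, and of those that were DEGs from 0 to 1. The cause was not tested. Within-sample ratios near 0 changed sign when a library was left out: Ppara to Ppard (-0.317 to 0.0108), Nr1h3 to Nr1h2 (-0.0579 to 0.107) and the partners to the RAR genes (-0.0494 to 0.0217). Over all genes there were 667 DEGs, with 480 to 755 when a library was left out. The number was 752 with DESeq2, 669 with upper quartile scaling, 682 without the filter, 657 and 434 with limma on log2(FPKM + 0.1) and log2(FPKM + 1), 1319 without the fold threshold and 1017 with an unadjusted p. With limma on log2(FPKM + 1), 0 of the receptors were DEGs, since the pseudocount exceeds the level of Pparg. Of all genes, 1319 had an adjusted p below 0.05, against 2242 without CON 1, 721 without CON 2, 1316 without CON 3, 693 without RA 1, 680 without RA 2 and 657 without RA 3.

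No source used here says that the replicate numbers pair samples across the groups. Deviations of same-numbered samples correlated at 0.0928, -0.0123 and 0.0118. CON 1 correlated best with RA 1, and CON 3 with RA 2 (0.110). With 3 samples per group, these values cannot decide whether samples were paired. With the numbers as a block, Pparg was at 1.36 (adjusted p = 0.0200), Thra at -0.35 (adjusted p = 0.0164) and 684 genes were DEGs. Genes with an adjusted p below 0.05 numbered 1595 with the block and 1319 without it. Fabp4 (adjusted p = 0.0556), Rarb (0.0526) and Lpcat3 (0.0549) no longer passed. Low counts limit Pparg, Rarb, Cyp24a1, Abcg1 and Dio2, and the level of Myod1 was low as well. Gene-level counts separate neither the splice forms of Thra nor the starts of Pparg.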
